A study of Rattus norvegicus with 4 samples.

Results

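The genes described here are 10 markers of astrocytes, Gfap, Gja1, Slc4a4, Aqp4, Aldh1l1, S100b, Aldoc, Glul, Vim and Sox9, of 14497 genes measured in all. Members were taken by exact gene symbol in the annotation of the array, with the probe set of the highest mean over the 4 arrays for each gene. Of the 10, 8 were matched, each by 1 probe set. Glul and Sox9 matched no probe set by symbol or gene identifier and were not analysed here. The samples were cultures of hippocampal neurons prepared from embryonic rats and treated with an shRNA. In 2 samples the shRNA targeted Gld2, a cytoplasmic poly(A) polymerase (gene symbol Tent2), and in the other 2 it was scrambled. All 4 RNA samples were polyadenylated RNA released by heat from poly(U) Sepharose, so unequal amounts of a transcript and unequal recovery through its tail cannot be told apart. The sources used here do not give the vector, the promoter that drove the shRNA, the share of cells it reached or the age of the cultures. They also do not say if the replicates were prepared separately, so p-values measure only the spread among these samples, part of which may be technical. Each sample is called a culture below, which does not mean that it was known to be grown apart from the others.

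Astrocytes are the glial cells that take up transmitter, buffer ions and water, and supply neurons with metabolites. They are joined to each other by gap junctions, and their endfeet on blood vessels carry water and potassium channels. After injury or under inflammatory signals they become reactive, a state usually recognised by more of the filament protein GFAP and by a set of secreted and acute phase proteins. Cultures prepared as neurons commonly hold some astrocytes.

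The members did not move together. Gja1, the main gap junction protein of astrocytes, and Slc4a4, their sodium bicarbonate cotransporter, were lower in both Gld2 shRNA cultures, at 76.3% and 78.2% of the scrambled shRNA level. The other 6 members stood 1.03-fold to 1.08-fold above the control level, and none of them passed the test. To show what lies upstream of these genes, the 250 bases before the annotated start of Gja1, Slc4a4 and Gfap are printed, the first pair because they fell and Gfap as the member usually taken as the sign of reactivity. They come from RefSeq (GRCr8), where Gja1 is chr20:36302314-36302563 (plus strand), Slc4a4 is chr14:19468283-19468532 (minus strand) and Gfap is chr10:88361662-88361911 (minus strand). Each is written 5′ to 3′, with capitals for motif matches.
Gja1: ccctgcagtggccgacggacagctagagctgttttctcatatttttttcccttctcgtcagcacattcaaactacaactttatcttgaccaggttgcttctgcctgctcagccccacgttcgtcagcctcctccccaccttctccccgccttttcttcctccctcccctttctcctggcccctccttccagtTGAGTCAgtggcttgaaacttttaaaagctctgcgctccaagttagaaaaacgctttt
Slc4a4: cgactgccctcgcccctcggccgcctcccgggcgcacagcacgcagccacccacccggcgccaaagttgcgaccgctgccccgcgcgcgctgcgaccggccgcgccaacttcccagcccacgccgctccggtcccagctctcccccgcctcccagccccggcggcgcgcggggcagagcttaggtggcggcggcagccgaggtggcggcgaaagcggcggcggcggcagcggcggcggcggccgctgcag
Gfap: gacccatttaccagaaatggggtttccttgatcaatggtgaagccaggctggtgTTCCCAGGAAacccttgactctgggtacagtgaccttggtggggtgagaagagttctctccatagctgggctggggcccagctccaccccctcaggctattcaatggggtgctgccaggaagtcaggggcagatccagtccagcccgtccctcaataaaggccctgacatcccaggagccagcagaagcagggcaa
The start given for Slc4a4 lies inside the span of the gene, so it belongs to a shorter transcript. It was the only start searched for this gene, and the bases before the outer end of the gene were not searched. Both strands were searched for TGANTCA (the AP-1 motif), for TTC and GAA with 3 or 4 free bases between them (STAT motifs) and for GAAA repeated after 2 free bases (a core of the interferon-stimulated response element). Overlap between motifs was allowed. Gja1 held 1 AP-1 match, TGAGTCA, from base -58 to -52 before the start. Gfap held 1 STAT match with 4 free bases, TTCCCAGGAA, from base -196 to -187, and Slc4a4 held no match to these letters. AP-1 letters occurred in 6.34% of all 33469 windows of this length, the STAT motif with 4 free bases in 6.25% and with 3 in 7.67%, and the interferon motif in 3.41%. Counted by gene, over any window of a gene, the interferon motif was in 0 of the 8 measured members. It was in 10 of 16 interferon-induced genes that have a window. These are counts of genes, whereas the shares above are of windows. A match describes letters only.

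The values are log2 RMA values, and the medians of the 4 arrays were 8.41 to 8.48. Precision is limited by the number of arrays, 4 in all. The targeted gene, Tent2, read 9.50 and 9.35 under its own shRNA and 10.73 and 10.67 in the controls, in the direction of the labels. Of 14497 genes, 245 passed the limma test as higher and 349 as lower (Benjamini-Hochberg adjusted p under 0.05), which is 4.10% of all genes (1.69% higher, 2.41% lower). Groups that do not overlap were common with 2 arrays a group, in 58.5% of genes (24.0% higher, 34.5% lower). The median log2 difference over all genes, Gld2 shRNA minus scrambled shRNA as throughout, was -0.02. The labels name neurons, and the 15 neuron markers were all above the median level of the genes on the array. So were 7 of 8 members, Aldh1l1 being the exception, and 28 of 35 further astrocyte genes, against 0 of 14 microglia, 2 of 12 oligodendrocyte lineage, 5 of 14 endothelial and fibroblast, and 3 of 12 dividing and progenitor cell markers. Probe sets respond unequally and no detection calls were used, so these counts describe array values only, and which cells gave the RNA was not tested.

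**Figure D1:**
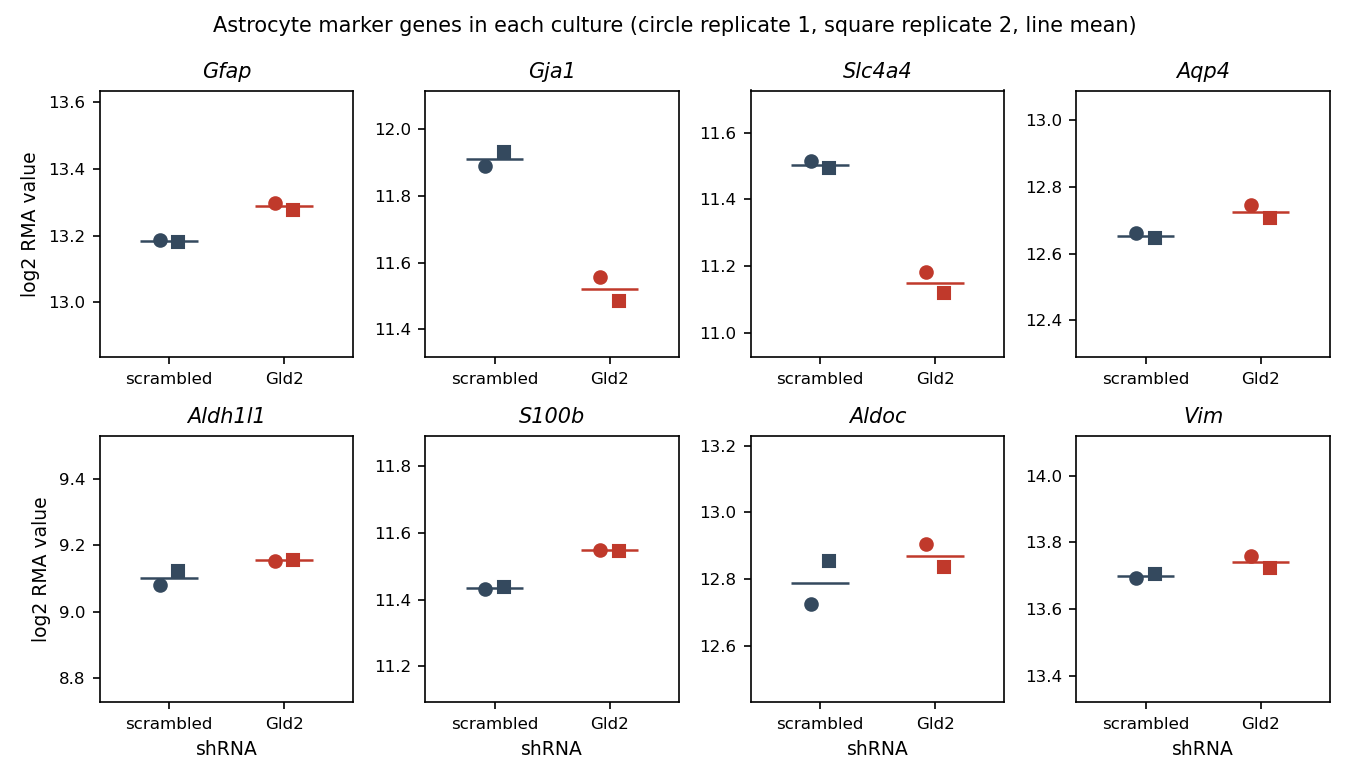
Each panel plots the log2 RMA value of 1 astrocyte marker gene in every culture, with scrambled shRNA on the left and Gld2 shRNA on the right, circles for replicate 1, squares for replicate 2 and a line at the mean of each group. Every panel spans the same range of log2 units, and the groups stand clearly apart and lower under Gld2 shRNA in the panels of Gja1 and Slc4a4.

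Gja1 encodes connexin 43, which forms the gap junctions that couple astrocytes into a network. Gja1 (probe set 10830189) read 11.56 and 11.49 under Gld2 shRNA, and 11.89 and 11.93 under scrambled shRNA. Both knockdown values were below both control values, and the gap between the groups was well over the spread inside either. The knockdown mean was 11.52 ± 0.0510 (SD, n = 2) and the control mean 11.91 ± 0.0304 (SD, n = 2), which puts the log2 difference at -0.39 (SE 0.0635, 95% confidence limits -0.55 and -0.24). It passed the limma test at an adjusted p of 0.0352, with Benjamini-Hochberg adjustment over all genes. The fall was 1.31-fold, and the difference was 5.42 times the larger gap between cultures of the same group. That ratio was 5.54 for Slc4a4. Among members that did not pass, it was 19.9 for S100b, 5.11 for Gfap and 0.633 to 1.80 for the rest. Of all genes, 2.39% had a more negative difference than Gja1, and 0.345% of the 1450 genes in its decile of level. The estimate kept its size when a culture was left out, from -0.43 to -0.35, but the call did not. The adjusted p was 0.0851 without Gld2 shRNA replicate 2, 0.286 without scrambled shRNA replicate 1 and 0.280 without scrambled shRNA replicate 2, in limma fits that take the spread from fewer arrays. The call was also lost with adjustment over every probe set on the array (0.0844) and without moderation (0.259).

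Slc4a4 encodes the electrogenic sodium bicarbonate cotransporter NBCe1, with which astrocytes regulate pH inside and around the cell. Slc4a4 (probe set 10775997) was at 11.18 and 11.12 after Gld2 shRNA and at 11.51 and 11.49 after scrambled shRNA. Again both knockdown cultures lay under both controls. The knockdown mean was 11.15 ± 0.0453 (SD, n = 2) and the control mean 11.50 ± 0.0140 (SD, n = 2), which puts the log2 difference at -0.35 (SE 0.0618, 95% confidence limits -0.51 and -0.20). Its adjusted p in the same limma test was 0.0408. The fall was 1.28-fold. Slc4a4 is a very long gene, 451986 bp in RefSeq, in the top decile of genomic length, and long genes were lower in these arrays as a class. The 1448 genes of that decile had a median log2 difference of -0.12, with 122 lower and 3 higher. With the trend of each array with gene length removed, Slc4a4 stood at -0.18 (adjusted p = 0.130) and its call was lost, whereas Gja1, with 12521 bp in a decile whose median was close to 0, kept its call. The call of Slc4a4 was also lost without Gld2 shRNA replicate 2 (adjusted p = 0.101), scrambled shRNA replicate 1 (0.326) or scrambled shRNA replicate 2 (0.280), in limma, at log2 differences from -0.36 to -0.32. It was lost as well with adjustment over every probe set (0.0918) and without moderation (0.250).

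**Figure D2:**
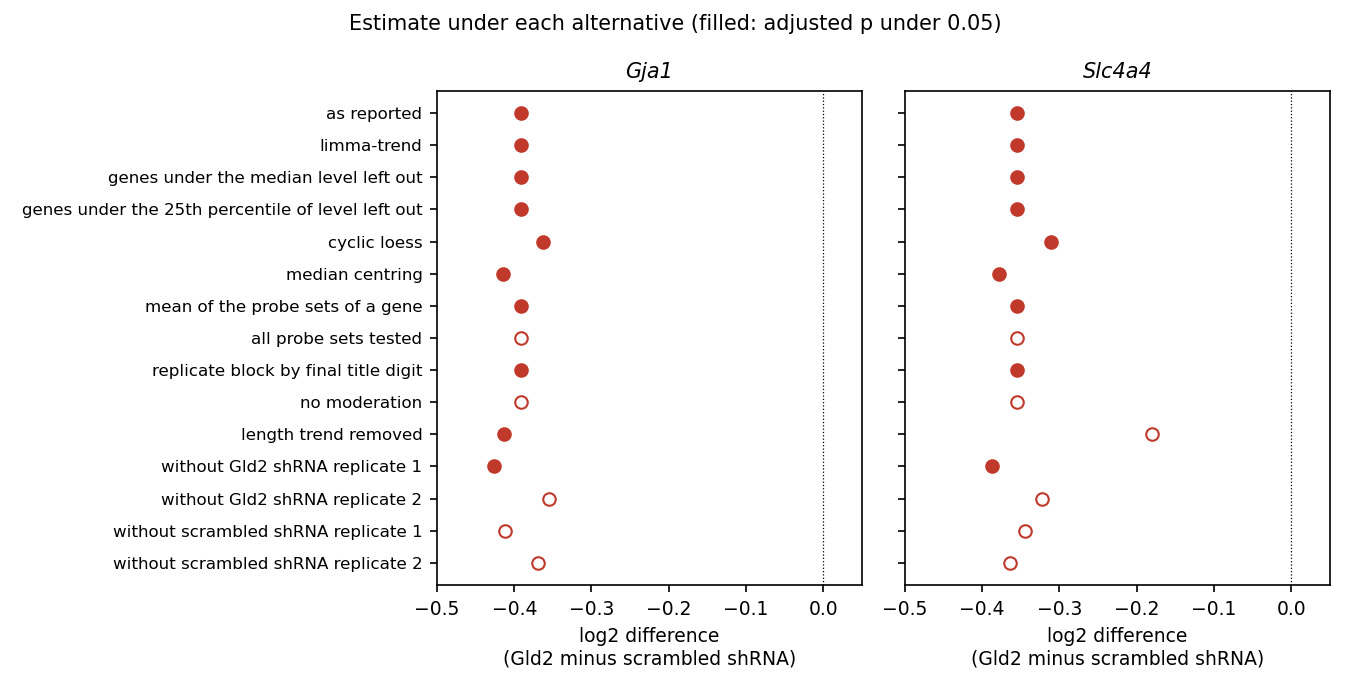
Each point is the log2 difference, Gld2 shRNA minus scrambled shRNA, of Gja1 (left) or Slc4a4 (right) under 1 way of processing, filled where the adjusted p was under 0.05. All estimates lie below 0, from -0.43 to -0.35 for Gja1 and from -0.39 to -0.18 for Slc4a4, with 9 and 8 of 14 alternatives past the threshold.

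The intermediate filament members were close to their controls. Gfap, the filament protein that defines astrocytes and rises in reactive ones, read 13.30 and 13.28 under Gld2 shRNA and 13.19 and 13.18 in the controls. The groups did not overlap, and the log2 difference was 0.10, with 95% confidence limits of -0.04 and 0.25 (limma, adjusted p = 0.316). The upper end of that interval is a 1.19-fold rise. With the variance prior of limma set to depend on expression level (limma-trend), the test called Gfap higher (adjusted p = 0.0307), and it was not called under the other 13 alternatives. Vim, the vimentin gene, which astrocytes share with progenitors and fibroblasts, was at 13.76 and 13.72 against 13.69 and 13.71. Its log2 difference was 0.04 (interval from -0.10 to 0.19) and turned to -0.03 with cyclic loess, so no direction can be given. Both genes stand near the top of the values on these arrays, which reach 14.3.

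Aqp4 encodes the water channel of the astrocyte endfoot. Its values were 12.75 and 12.71 after Gld2 shRNA and 12.66 and 12.65 after scrambled shRNA, a log2 difference of 0.07 (interval from -0.08 to 0.22, adjusted p = 0.484 in limma). S100b, a calcium-binding protein that astrocytes also secrete, read 11.55 in both knockdown samples against 11.43 and 11.44 in the controls. Its log2 difference of 0.11 (interval from -0.03 to 0.26) did not pass (adjusted p = 0.276 in limma), although the groups stood apart.

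The metabolic members were also near their controls. Aldh1l1, a folate enzyme widely used as a pan-astrocyte marker, stood at 9.15 and 9.16 against 9.08 and 9.12, a log2 difference of 0.05 (interval from -0.09 to 0.20). Aldoc, the brain form of the glycolytic enzyme aldolase, was at 12.91 and 12.83 against 12.73 and 12.85, and was the only member whose groups overlapped. Its log2 difference was 0.08 (interval from -0.10 to 0.26). Of the 8 members, 0 were higher, 2 lower and 6 did not pass, beside the 4.10% of all genes that passed. The groups stood apart upward in 5 and downward in 2, beside the 24.0% and 34.5% of all genes. Of the 8, 2 had a difference below 0, beside 53.8% of all genes, and the same 2 an unadjusted p under 0.05, beside 25.4%. The median difference of the members was 0.06, against -0.02 over all genes. Their mean log2 level was 12.02 and 11.98 under Gld2 shRNA and 12.02 and 12.05 in the controls.

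**Figure D3:**
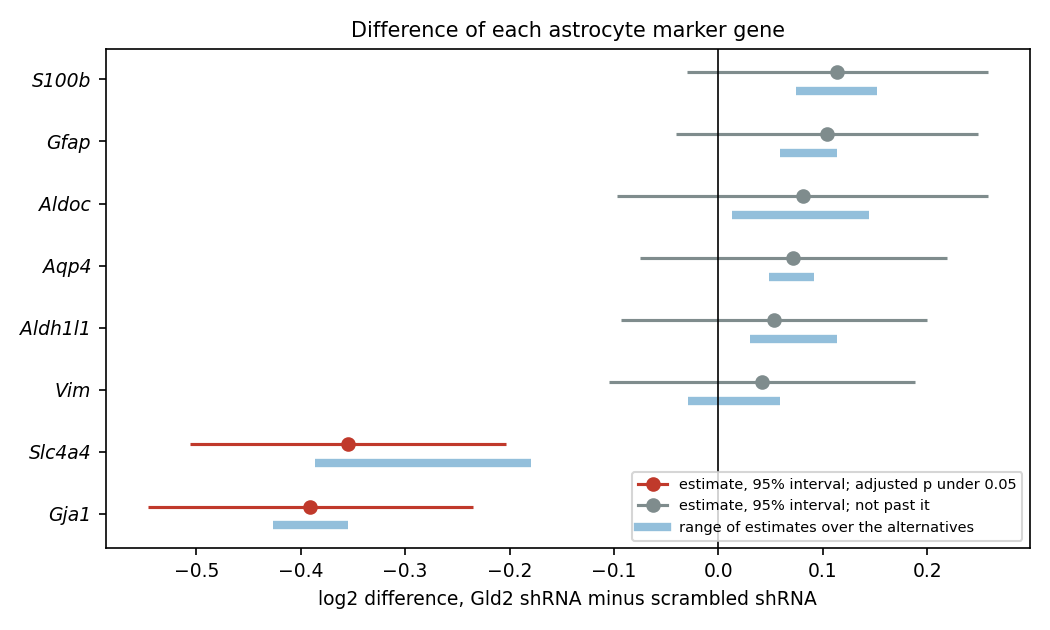
Points and thin lines are the log2 difference of each astrocyte marker gene (Gld2 shRNA minus scrambled shRNA, 4 arrays) with its 95% confidence interval, red where the adjusted p was under 0.05, and thick blue lines span the estimates over the alternative ways of processing. Gja1 and Slc4a4 lie wholly below 0, the other 6 intervals include 0, and the blue line crosses 0 for Vim alone.

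Set against the other members inside the same culture, Gja1 and Slc4a4 were lower whichever member was used. The log2 value of Gja1 minus that of Gfap was -1.74 and -1.79 under Gld2 shRNA and -1.30 and -1.25 in the controls, a shift of -0.49. For Slc4a4 minus Gfap the values were -2.12 and -2.16 against -1.67 and -1.69, a shift of -0.46. Against Vim the shifts were -0.43 for Gja1 and -0.40 for Slc4a4. Over the 6 other members, the shifts of Gja1 ran from -0.50 to -0.43 and those of Slc4a4 from -0.47 to -0.40. The groups did not overlap in any of the 12 ratios. Gja1 and Slc4a4 were chosen as the members that fell, and the other 6 lay above 0. Lower ratios therefore follow from the single differences and are no further support for them. An exact permutation test over 4 cultures cannot go below a two-sided p of 0.333, so no test of a ratio is given. In whole cultures, fewer cells of a type and less RNA in each cell cannot be told apart for any single gene, and these ratios show only that the members changed unequally.

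Few other genes of astrocytes passed the test. Of 35 measured members of a wider astrocyte list, 1 was lower, 0 higher and 34 did not pass, a share of 2.86% beside the 4.10% of all genes. Bmpr1b, a receptor for bone morphogenetic proteins, was the one that fell, with a log2 difference of -0.48 (adjusted p = 0.0308, limma), and this call was lost without either scrambled shRNA culture (adjusted p up to 0.286) and with the length trend removed. Cbs, an enzyme of sulphur amino acid metabolism, came next at -0.32 and did not pass. The glutamate transporter genes Slc1a2 and Slc1a3, the most typical transport functions of astrocytes, stood at -0.12 and -0.02. The apolipoprotein genes Clu and Apoe were at 0.24 and 0.09, and the inward rectifier potassium channel Kcnj10 at -0.19. The list had 21 values below 0 and 14 above, with a median of -0.03 and a mean log2 level of 10.77 and 10.70 in the Gld2 shRNA cultures against 10.79 in both controls. An unadjusted p under 0.05 in limma was found for 11 of the 35, which is 31.4% beside 25.4% of all genes. The groups stood apart downward in 14 and upward in 8, beside 34.5% and 24.0% of all genes.

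The families and pathways around each member held calls in both directions, 8.26% of their 109 measured genes (members included) beside the 4.10% of all genes. Of the 7 intermediate filament genes of glia and progenitors, 0 passed in limma and 1 had an unadjusted p under 0.05. Nestin (Nes, -0.25) and synemin (Synm, -0.14), the partners of vimentin in immature astrocytes, had the smallest p. Of 7 connexin genes, Gja1 fell and Gja5, a connexin best known from vessels and heart, rose by 0.57, a call lost without Gld2 shRNA replicate 2 or either control (adjusted p up to 0.187 in limma). The other astrocyte connexins, Gjb6 (0.12) and Gjb2 (0.01), did not pass. Of 10 Slc4 bicarbonate transporter genes, Slc4a4 fell and Slc4a1, the anion exchanger of red cells, rose by 0.48, with the call lost without the same 3 cultures (adjusted p up to 0.318 in limma), with the replicate block (0.0512) and with the length trend removed. Slc4a7 and Slc4a8, further sodium-coupled bicarbonate transporters, were at -0.32 and -0.41 and did not pass, and 7 of the 10 lay below 0, with a median of -0.15 (-0.09 without scrambled shRNA replicate 1).

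Of 11 aquaporin genes, 0 passed in limma and 3 had an unadjusted p under 0.05. Aqp8 (0.25) and Aqp9 (0.25) had the smallest p, and 10 of 11 lay above 0 with a median of 0.23. That median rests largely on 1 culture. The mean log2 level of the list was 8.35 and 8.55 under Gld2 shRNA against 8.26 and 8.28 in the controls, and without Gld2 shRNA replicate 2 the median was 0.07. Of the 5 measured genes of the complex that anchors Aqp4 at the endfoot, Sntb1, the beta-1 form of the scaffold protein syntrophin, rose by 1.12, which is 2.18-fold (adjusted p = 0.000592, limma), and stayed past the threshold without any 1 culture (highest adjusted p 0.0173). Kcnj10 did not pass, and Dmd, the dystrophin gene, was at -0.10. Of 9 genes of glutamate uptake and glutamine supply, Slc38a2, an amino acid transporter that neurons use to take up glutamine, fell by 0.73 on the log2 scale (adjusted p = 0.00737), a call lost without either scrambled shRNA culture (adjusted p up to 0.115 in limma). Slc38a3, through which astrocytes release glutamine, was at -0.18 and did not pass.

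Of 10 folate enzymes, 0 passed in limma and 3 had an unadjusted p under 0.05, with 8 below 0, a median of -0.10, and Mtr (-0.33) and Mthfd1l (-0.27) at the smallest p. Of 17 aldolase and glycolysis genes, 0 passed and 0 had an unadjusted p under 0.05, and all lay between -0.06 and 0.09, with Gapdh (0.09) and Pkm (0.08) at the smallest p. In the S100 family, 2 of 13 rose, S100a11 by 0.45 and S100a10 by 0.44, both proteins that pair with annexins. Those calls were lost without Gld2 shRNA replicate 2 or either control. With a culture left out, the log2 differences ran from 0.38 to 0.52 for S100a11 and from 0.35 to 0.52 for S100a10. The call of S100a10 was also lost with the length trend removed (adjusted p = 0.0543 in limma). That of S100a11 was also lost with the mean of its probe sets, at a log2 difference of 0.31 (adjusted p = 0.0581 in limma). Of 16 astroglial transcription factors, Nfib, of the nuclear factor I family that sets off glial differentiation, fell by 0.44 on the log2 scale (adjusted p = 0.0202). Its call was lost without either scrambled shRNA culture (adjusted p up to 0.232) and with the length trend removed. Its relative Nfia was at -0.24, Zbtb20 at -0.31 and Stat3 at 0.25, none past the threshold. Nfia (538386 bp) and Zbtb20 (739030 bp) are longer than Slc4a4, and long genes were lower as a class. Across these lists and a list of neuronal intermediate filaments, 94 of 101 genes that are no member did not pass, 5 rose and 2 fell. That is 4.95% higher and 1.98% lower, beside 1.69% and 2.41% of all genes.

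**Figure D4:**
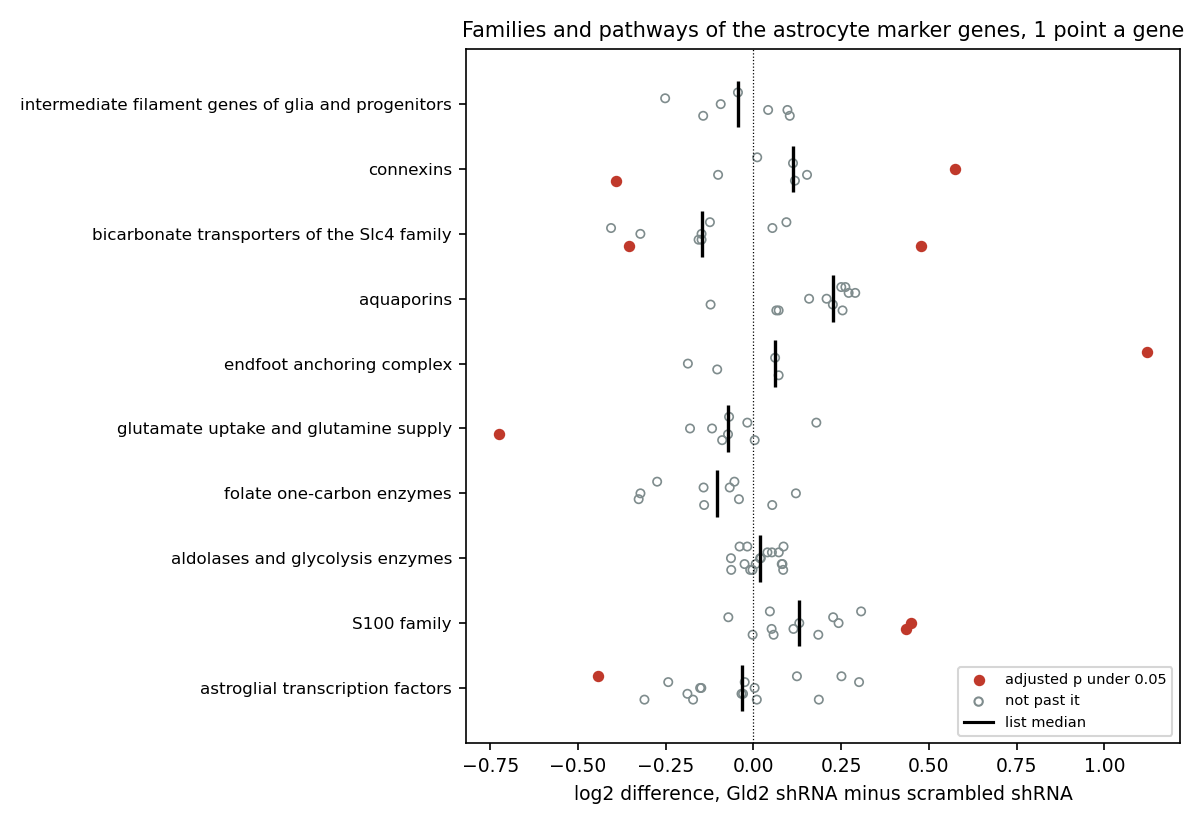
Each point is the log2 difference of 1 gene (Gld2 shRNA minus scrambled shRNA) in 10 families and pathways to which the astrocyte marker genes belong, filled red where the adjusted p was under 0.05, with a bar at the list median. Most lists gather around 0, the aquaporin median of 0.23, with no gene past the threshold, is 0.07 without Gld2 shRNA replicate 2, and Sntb1 (1.12) and Slc38a2 (-0.73) are the outermost points.

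Many genes known from reactive astrocytes rose, although Gfap and Vim, which are among them, did not pass. Of 32 measured genes of 3 reactive lists, 14 were higher, 0 lower and 18 did not pass, beside 1.69% of all genes higher. Of 12 genes common to reactive states, 7 rose, with a median of 0.56. Cxcl10, an interferon-induced chemokine, read 13.45 and 13.47 under Gld2 shRNA against 10.57 and 10.78 in the controls, a rise of 2.78. Lcn2, an iron-trafficking acute phase protein secreted by reactive astrocytes, rose by 1.91, which is 3.75-fold. Serpina3n, a protease inhibitor, rose by 1.73 and Timp1, an inhibitor of matrix metalloproteases, by 0.79, with Cp (0.67), Steap4 (0.58) and Hspb1 (0.53) after them. The cytokine receptor Osmr (0.27), Aspg (0.19) and the hyaluronan receptor Cd44 (0.07) did not pass. Timp1 lost its call without scrambled shRNA replicate 1 (adjusted p = 0.0682), and Cp, Steap4 and Hspb1 without either control (adjusted p up to 0.135, 0.202 and 0.263), and Hspb1 with the length trend removed (0.0700).

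Of 9 measured genes of the A1 list, named for astrocytes exposed to inflammatory microglial signals, 4 rose. Gbp2, an interferon-induced GTPase, rose by 2.76, C3, the central complement component, 3.04-fold, Serping1, an inhibitor of complement C1, by 1.39 and Psmb8, an immunoproteasome subunit, by 0.66. Psmb8 lost its call without either control (adjusted p up to 0.121). Amigo2 (-0.06), Fbln5 (-0.18) and Fkbp5 (-0.29) did not pass and lay below 0. Of 11 genes of the A2 list, named for astrocytes after ischaemia, 8 did not pass and 2 lay below 0, the lowest at -0.40. The list median was 0.25. The 3 that rose were Emp1 by 0.53, Tm4sf1 by 0.47 and S100a10. Their calls were lost without either control (adjusted p up to 0.175, 0.310 and 0.280), and that of Tm4sf1 also with the replicate block (0.0501). Cxcl10, Gbp2 and Psmb8 are also in the interferon-induced list, of which all 21 measured genes rose, with a median of 3.42. Without those 3, 11 of 29 reactive genes were higher and 0 lower, with a median of 0.27. When the first scrambled shRNA culture was left out 6 of the 32 were higher, and 7 without the second.

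Neurons, endothelial cells and microglia can express several of these genes too. Of 14 microglia markers, 0 passed the test in limma and 3 had an unadjusted p under 0.05, 13 lay above 0 and the median was 0.14, or 0.08 without Gld2 shRNA replicate 2. C1qb (0.24) and Cx3cr1 (0.30) had the smallest p. Their mean log2 level was 7.71 and 7.84 under Gld2 shRNA and 7.62 and 7.64 in the controls, and no marker reached the median level of the genes on the array. Of 15 neuron markers, the RNA-binding protein Elavl4 (-0.73) and doublecortin (Dcx, -0.38) fell and 13 did not pass, with a median of -0.04. Among the 15, 12 lay below 0 and 3 above, beside 53.8% of all genes below 0. The groups stood apart downward in 8 and upward in 0, beside 34.5% and 24.0% of all genes. An unadjusted p under 0.05 in limma was found for 5, which is 33.3% beside 25.4%. Their mean log2 level was 12.39 and 12.37 under Gld2 shRNA and 12.52 and 12.50 in the controls. The call of Elavl4 was lost without either control (adjusted p up to 0.141) and that of Dcx also without Gld2 shRNA replicate 2 (adjusted p up to 0.365) and with the length trend removed (0.0778). Of 12 oligodendrocyte lineage markers, Cnp, a myelin-associated phosphodiesterase, rose by 0.54, with its call lost without either control (adjusted p up to 0.199), and Mbp stood at -0.29 without passing. Of 14 endothelial and fibroblast and 12 dividing and progenitor cell markers, 0 passed in limma, and 4 and 6 had an unadjusted p under 0.05, which is 28.6% and 50% beside 25.4% of all genes. Pdgfrb (-0.34) and Cldn5 (0.29), and Nes and Ccnb1 (-0.22), had the smallest p. The medians of those lists were 0.06 and -0.04, and without Gld2 shRNA replicate 2 they were 0.03 and 0.01. Whether the mix of cells has a part in the differences of Gja1 and Slc4a4 was not tested.

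**Figure D5:**
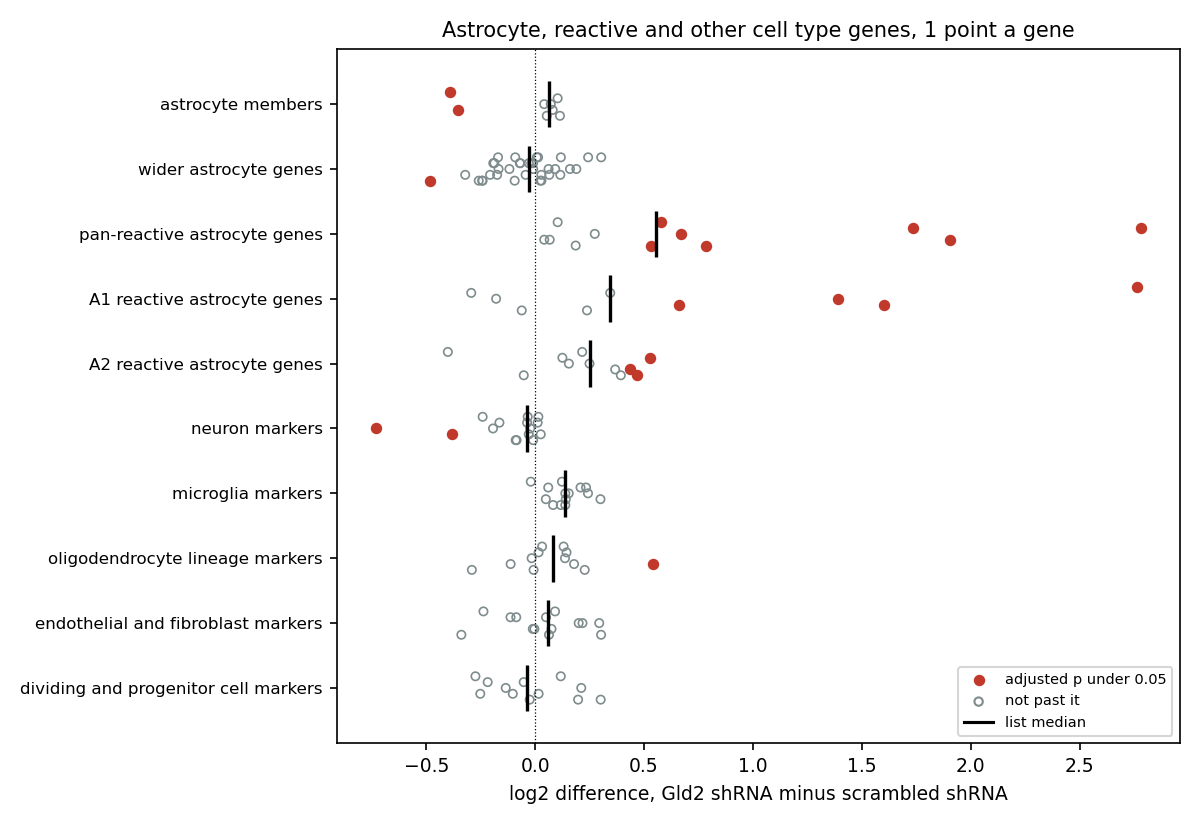
Each point is the log2 difference of 1 gene (Gld2 shRNA minus scrambled shRNA) in the astrocyte marker genes, a wider astrocyte list, 3 lists of reactive astrocytes and 5 lists of other cell types, filled red where the adjusted p was under 0.05, with a bar at the list median. The reactive lists reach to 2.78 on the right, while the astrocyte lists and the other cell types stay between -0.73 and 0.54.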

How the data were processed

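RNA of 4 samples of cultured rat cells, 2 in each group, was measured on Affymetrix whole-transcript arrays. Per the submitters' processing notes, the authors used RMA and the affy package, and the sources used here do not give their versions or settings. The deposited values are log2 values, a scale read from their range (3.23 to 14.3). Of 28826 probe sets, 15209 had 1 gene symbol, 306 several and 13311 none in the platform annotation. The probe set with the highest mean was used for each of 14497 genes, 494 of which had more than 1. Groups were compared with limma 3.58.1 in R 4.3.3 (lmFit, eBayes, two-sided, 2 residual and 3.96 prior degrees of freedom), with Benjamini-Hochberg adjustment over all genes and a threshold of 0.05. The fit was tested on simulated data with independent normal errors, variances drawn from its own fitted prior and 50 genes changed at each fold. It recovered 0 of 50 genes changed 1.25-fold, 64% of those changed 1.5-fold and 94% at 2-fold. These shares belong to that setting and are not recovery rates for the real data, where Gja1 passed at 1.31-fold and Slc4a4 at 1.28-fold. A gene that did not pass may still differ by a small fold. Confidence intervals of 95% are not adjusted.

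The members, gene lists and tests were chosen with earlier results of these data known. Named in each list were up to 4 genes past the threshold by smallest p or, with fewer than 2, the 2 with the smallest p. Further genes were chosen after their values were seen. No list was tested as a set. The sources used here do not name the genome build of the array annotation, so coordinates belong to the RefSeq windows only. Gene lengths are genomic spans in RefSeq GRCr8. Alternatives were limma-trend, filters at the median and the 25th percentile of level, median centring, cyclic loess, averaging over probe sets, adjustment over every probe set, a replicate block, no moderation, removal of a length trend (lowess, span 0.3) and leaving out each culture. Leaving out cultures for the list medians was added after the data were seen.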

Additional observations from a re-analysis of the deposited data

How the results depend on the processing

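Over the 14 alternatives, the members kept their sign wherever they were tested, except for Vim, which was at -0.029 with cyclic loess. Aldh1l1 lies under the median level and was not tested with that filter. Limma-trend called 621 genes higher and 1611 lower, and of these 10 and 14 of the role lists, 3 and 5 of the wider list, 3 and 8 of the other cell type markers, 2 reactive genes lower and 1 member (Gfap) higher. Without genes under the median level, 1287 genes were lower, with 13 of the role lists, 1 reactive gene, 7 other cell type markers and 3 wider genes, and 3 wider genes were higher. Without genes under the 25th percentile, 949 genes were lower, with 10 of the role lists and 5 other cell type markers, and 2 such markers and 1 wider gene were higher. Median centring gave 558 higher and 1367 lower, with 12 role genes, 2 reactive genes, 7 other markers and 2 wider genes lower and 5 other markers and 1 wider gene higher. With all 28826 probe sets adjusted together, 127 genes were higher and 50 lower, 1 role gene each way, 1 other marker lower, and 0 members and 0 wider genes lower and 0 other markers higher. Without moderation, 1 gene was higher and 0 lower, so 0 members and 0 genes of the role, reactive, wider or other cell type lists passed. With the length trend removed, 3 role genes were higher and 2 lower, 1 member (Gja1) and 1 other marker were lower, and 0 wider genes.

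Leaving out each culture gave 82 to 1283 genes higher and 3 to 1406 lower, 0 to 2 members lower, 0 to 6 wider genes lower, 1 to 14 role genes higher and 0 to 10 lower, 6 to 17 reactive genes higher and 0 to 3 lower, and 0 to 7 other markers higher and 0 to 7 lower. The highest counts of all genes came without Gld2 shRNA replicate 1 and the lowest without scrambled shRNA replicate 1. A culture left alone in its group is assumed to vary like the other group. The cause of these shifts was not tested.

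With the number that ends each sample title used as a replicate block, 233 genes were higher and 332 lower, and 2 members stayed lower. Slc4a1 and Tm4sf1 lost their calls. Nothing given says that the digits pair the cultures, and deviations of same-digit cultures correlated at 0.143. Leaving the 3 genes shared with the interferon-induced list out of the reactive lists, a step chosen after seeing the data, gave 11 higher. Whether those 11 respond to interferon was not tested. No detection calls were used, so signal over background was not tested.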

Other observations

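The neuronal intermediate filament genes, relatives of Gfap and Vim, were near their controls as well. Of 5, 0 passed in limma and 1 had an unadjusted p under 0.05. Nefm stood at -0.19 and Prph, the peripherin gene, at 0.10, with a list median of -0.04.

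In the windows of 250 bases before annotated starts, the core of the interferon-stimulated response element was found for 1 of 13 genes common to reactive states (Cxcl10), 2 of 9 A1 genes with a window (Gbp2 and Srgn) and 0 of 9 A2 genes. Lcn2, Serpina3n and C3, which rose, did not hold these letters there. Glul, which was not analysed here, held them in 1 of its 2 windows.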
